A study of Mus musculus with 12 samples.

Results

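The genes described here are those of circulating red cells, measured in mouse pituitary glands. They are Hba-a1 and Hba-a2 for the alpha chain of hemoglobin, Hbb-b1 and Hbb-b2 for the beta chain, and Alas2, Slc4a1, Ahsp and Bpgm, which build, stabilise or regulate hemoglobin or the red cell membrane. All probes of the array that carry one of these names or a synonym were taken, which gave 8 probes, 1 for each gene, of 39429 probes that are not controls. All 8 were among the 24605 probes kept after the filter on dim spots. By name, these are 8 of the 30175 gene names on the array. The set had been picked from the study because earlier results of the same data showed these genes moving in the comparisons with control.

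The 12 samples are pituitaries of C57BL/6J female mice aged 2 months, 4 animals in each of 3 diet groups. The early life group had a diet deficient in vitamin D only in the first part of life, the peripubertal group had it only around puberty, and the control group had a normal diet. The labels name no transgene and no other treatment. Total RNA was labelled with Cy3 (animals 1 and 3 of each group) or Cy5 (animals 2 and 4) and hybridised on 6 Agilent arrays of 2 colours, each holding 2 animals of the same group. Levels are log2 spot intensities after background correction and scaling, so 1 unit is a factor of 2 (processing is described further on).

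Several facts of the arrays bear on every value below. Both control arrays came from 1 slide and the 4 arrays of the deficient groups from another. In comparisons with control, diet and slide therefore cannot be told apart. Dye and animal number go together, so they cannot be told apart within an array. The names of both deficient groups follow the scanner files. In the deposited value table all 8 columns of the deficient groups equal channels of the other deficient group, so early life and peripubertal would change places if that table's naming were the right one. None of its 4 control columns matched a channel of these arrays, which left the naming of control samples unchecked. Between 50.6% and 59.7% of spots were well above background in early life samples, 57.9% to 67.2% in peripubertal samples and 61.0% to 66.3% in control samples. Gh, Prl and Pomc, the defining hormone genes of the pituitary, had mean log2 levels of 18.2, 17.8 and 17.7 over all samples, the tissue that the labels name. In whole tissue, fewer cells of a type and less RNA per cell cannot be told apart.

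Hemoglobin is a tetramer of alpha and beta globin chains, each holding a heme group that carries oxygen. Mature mammalian red cells have no nucleus, but the youngest of them in blood, the reticulocytes, still hold globin RNA. The pituitary does not make red cells. It is densely supplied with capillaries, and a gland removed from an animal that was not perfused keeps some of its blood. The labels say that the glands were removed and minced, and do not mention perfusion.

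The sequences that carry the signal are given first, since these genes come as near-identical copies and a probe may bind the transcripts of more than one. Of the probes that lie in coding sequence, 2 are shown here, 5′ to 3′ on the transcript strand. The Hba-a1 probe lies at chr11:32183955-32184014 of build mm9 on the plus strand, in a coding exon. The Hbb-b2 probe has no position in that build in the files. RefSeq places Hbb-b2 on chromosome 7.
Hba-a1 probe: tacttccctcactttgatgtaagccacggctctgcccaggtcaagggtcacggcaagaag
Hbb-b2 probe: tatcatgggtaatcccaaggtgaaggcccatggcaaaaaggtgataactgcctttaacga

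The probe named Hbb-b1 in the files has the accession that RefSeq now gives to Hbb-bt. C57BL/6 mice carry the haplotype of the beta globin cluster with Hbb-bs and Hbb-bt as adult genes, while the names Hbb-b1 and Hbb-b2 belong to another haplotype. A further probe of the array is called Beta-s. Over the 46 bases that could be compared it equals the start of the Hbb-bs transcript at 46 positions, and over 45 bases it differs from Hbb-bt at 7. It is no member by name and was added after its values were seen. Because alpha copies are alike and beta copies are alike, a globin probe may report its chain rather than a single copy. Beta-s does differ between Hbb-bs and Hbb-bt. Probes were not realigned, so which copies each of them binds was not tested.

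The promoters of genes that varied together are shown because they let one see which short motifs the sequences have in common. Each run holds the 250 bases before the annotated transcript start, from RefSeq on build GRCm38.p6, and capitals mark matches on either strand to 4 short motifs. The GATA core is GATAA, bound by GATA factors. The second motif, bound by Krüppel-like factors, is CACCC. The CCAAT box and the TATA box (TATAA) are general promoter motifs. The Hba-a1 window is chr11:32283422-32283671 on the plus strand, the Hbb-bt window is chr7:103813924-103814173 on the minus strand and the Alas2 window is chrX:150547167-150547416 on the plus strand.
Hba-a1 promoter: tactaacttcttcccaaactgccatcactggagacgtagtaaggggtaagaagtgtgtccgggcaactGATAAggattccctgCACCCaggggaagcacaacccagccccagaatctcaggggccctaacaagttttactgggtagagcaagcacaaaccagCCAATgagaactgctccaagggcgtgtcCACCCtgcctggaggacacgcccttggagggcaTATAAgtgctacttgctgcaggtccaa
Hbb-bt promoter: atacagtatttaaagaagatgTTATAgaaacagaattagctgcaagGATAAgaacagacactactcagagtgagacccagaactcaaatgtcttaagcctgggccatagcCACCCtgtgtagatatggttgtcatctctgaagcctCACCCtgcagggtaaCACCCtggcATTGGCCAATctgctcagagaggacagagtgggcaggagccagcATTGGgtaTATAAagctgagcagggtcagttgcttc
Alas2 promoter: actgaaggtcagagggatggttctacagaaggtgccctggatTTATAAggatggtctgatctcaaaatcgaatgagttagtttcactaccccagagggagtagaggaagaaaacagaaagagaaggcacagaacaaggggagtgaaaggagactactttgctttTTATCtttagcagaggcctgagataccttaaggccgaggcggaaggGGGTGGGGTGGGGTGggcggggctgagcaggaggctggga

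The Hba-a2 window, at chr11:32296242-32296491, is the same sequence moved by 3 bases, identical at 247 of 247 compared positions. The windows of Hba-a1, Hbb-bt and Alas2 each hold 1 GATA core, and they hold 2, 3 and 3 matches to the Krüppel-like factor motif. They hold 1, 3 and 0 CCAAT boxes and 1, 2 and 2 matches to the TATA box, the pair in Alas2 being overlapping matches on opposite strands. The Hbb-bs window holds 1 match of each motif. The window of Bpgm holds 3 CCAAT boxes and no match to the other motifs. Of 32851 mouse windows of the same length, 22.6% hold the GATA core, 52.0% the Krüppel-like factor motif, 33.8% the CCAAT box and 22.8% the TATA box, so single matches are common. Slc4a1 and Ahsp are named only.

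The alpha globin probes were well above background in all 12 samples. Hba-a1 had log2 levels of 15.76, 14.08, 14.45 and 14.03 in early life animals 1 to 4, 16.79, 16.14, 17.46 and 16.02 in peripubertal animals, and 16.93, 16.22, 14.66 and 14.85 in control animals. The early life animals all lay under every peripubertal animal. The control animals split by array: the 2 animals of one array were at peripubertal levels and those of the other were within the early life range. From the lowest animal (early life 4) to the highest (peripubertal 3) the level spanned a factor of 10.8. Hba-a2 had 16.59 and 15.07 in early life animals 1 and 2, 17.25, 16.80, 17.97 and 16.79 in peripubertal animals, and 17.16, 16.93, 15.04 and 15.48 in control animals. Its spot was marked as an outlier on the array of early life animals 3 and 4, so the fit uses only 2 early life values for it.

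Hbb-b1 and Hbb-b2 ordered the animals much as the alpha probes did. Hbb-b1 had 14.66, 13.11, 12.72 and 12.77 in early life animals, 15.56, 15.12, 16.19 and 14.74 in peripubertal animals, and 15.95, 15.30, 12.97 and 13.54 in control animals. Hbb-b2 had 14.45, 12.81, 12.93 and 12.57 in early life animals, 15.53, 14.86, 16.11 and 14.67 in peripubertal animals, and 16.01, 15.33, 12.95 and 13.64 in control animals. Early life 1 stood above the other early life animals for both beta probes, peripubertal 3 was the highest animal, and the control arrays were again apart. Beta-s ran from 9.59 to 10.37 in the 4 early life animals, had 11.51 and 11.85 in the 2 peripubertal animals with a value, and had 13.38, 12.43, 10.15 and 10.46 in control animals. Its highest animal was therefore control 1 and not a peripubertal one, although its spot on the array of peripubertal animals 3 and 4 was lost to an outlier mark.

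Alas2 encodes the red cell form of the enzyme that begins heme synthesis. Its levels were 9.67, 8.11, 8.41 and 8.11 in early life animals, 10.90, 9.98, 12.07 and 10.28 in peripubertal animals, and 11.60, 11.04, 8.95 and 9.23 in control animals. The order of the animals was close to that of the globins, with no overlap between early life and peripubertal animals and with the same split of the control arrays. Its factor of 15.6 between the lowest and the highest animal was the widest of the 8 genes.

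Slc4a1 encodes band 3, the anion exchanger of the red cell membrane. It had 7.86, 7.27, 7.44 and 7.81 in early life animals, 9.82, 8.64, 10.33 and 8.46 in peripubertal animals, and 8.97, 9.58, 7.68 and 7.80 in control animals. It was well above background in 2 of 4 early life samples and in all peripubertal and control samples, so the low end of its range lies near the limit of detection. Ahsp encodes the chaperone that holds free alpha globin until a beta chain binds it. It had 7.23, 7.01, 6.64 and 7.21 in early life animals, 8.05, 7.90, 8.84 and 7.47 in peripubertal animals, and 7.62, 7.56, 6.98 and 7.03 in control animals. It was not well above background in any early life sample, and it was in 4 peripubertal and 3 control samples. Its early life values are therefore only upper bounds.

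Bpgm makes 2,3-bisphosphoglycerate, the metabolite that lowers the oxygen affinity of hemoglobin, and it is active in other tissues too. It had 12.07, 11.90, 11.48 and 11.77 in early life animals, 11.88, 11.85, 11.91 and 11.67 in peripubertal animals, and 11.69, 11.79, 11.32 and 11.70 in control animals. It spanned a factor of 1.68 over all animals, and the groups overlapped. Its animals did not follow the order of the globins.

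**Figure D1:**
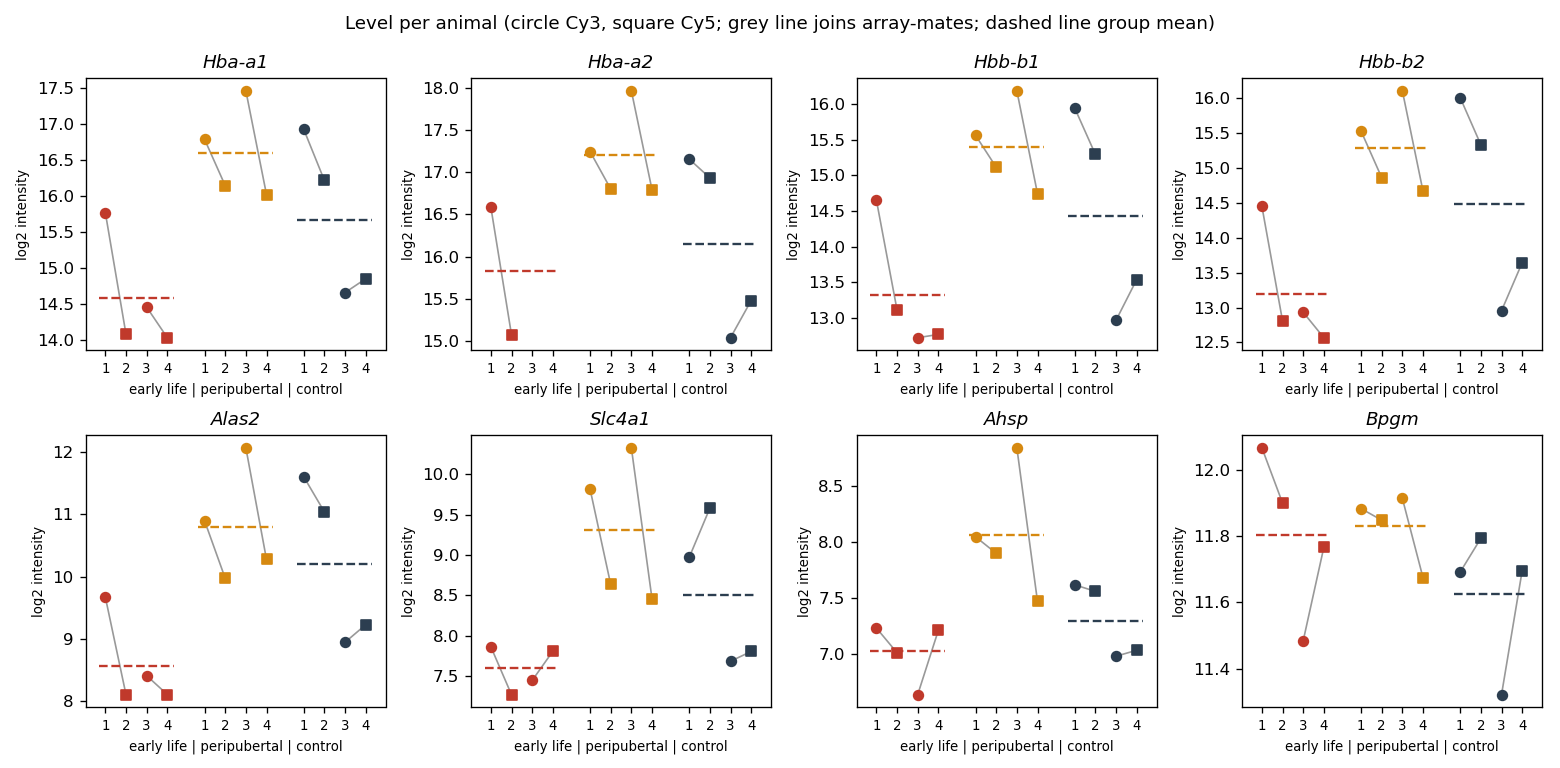
Log2 intensity of each gene (vertical axis, its own scale in each panel) in the 12 animals, numbered 1 to 4 within the early life, peripubertal and control groups. Circles are Cy3 and squares Cy5 samples, grey lines join the 2 animals of an array, and dashed lines are group means. Early life points lie under the peripubertal points in all panels but that of Bpgm, and 2 control points lie above the other 2. The early life points of Ahsp are not well above background.

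Group means put control between both deficient groups for 6 genes, the exceptions being Bpgm and Ahsp, whose early life level is only a bound. For Hba-a1 the means were 14.58 ± 0.81 in early life, 16.60 ± 0.66 in peripubertal and 15.66 ± 1.09 in control glands (SD, n = 4 each). For Hbb-b1 they were 13.31 ± 0.91, 15.40 ± 0.62 and 14.44 ± 1.41 in the same order of groups, and for Alas2 8.58 ± 0.74, 10.81 ± 0.93 and 10.21 ± 1.31. Control overlapped with both deficient groups for all 8 genes, because control animals 1 and 2 reached peripubertal levels and control animals 3 and 4 lay close to early life levels. For Bpgm the means were 11.81 ± 0.25 in early life, 11.83 ± 0.11 in peripubertal and 11.63 ± 0.21 in control glands, all within the spread.

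Both deficient groups were hybridised on a shared slide, so slide does not enter their comparison. On average, early life glands had 4.05-fold less Hba-a1, 4.25-fold less Hbb-b1, 4.29-fold less Hbb-b2 and 4.69-fold less Alas2 signal than peripubertal glands, without passing the adjusted test. On the log2 scale Hba-a1 differed by -2.02 ± 0.52, Hbb-b1 by -2.09 ± 0.67, Hbb-b2 by -2.10 ± 0.66 and Alas2 by -2.23 ± 0.63 (SE). Slc4a1 differed by -1.72 ± 0.55 and Hba-a2 by -1.37 ± 0.68. The fitted value of Ahsp was -1.04 ± 0.33. The detection limit of a channel was taken as its lowest level flagged well above background. With early life samples under that limit raised to it, Ahsp was 1.61-fold higher in peripubertal glands. This fold is not a strict bound, since early life 4, at 7.21, exceeded its limit of 7.16 without being well above background. Bpgm differed by -0.03 ± 0.17.

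The measured values of early life and peripubertal animals did not overlap for 7 of the 8 genes, all lower in early life, where 9.93% of all kept probes were lower without overlap and 21.6% were apart in either direction. For Ahsp this separation is not established, since the detection limit of early life 3, at 7.76, lies above the 7.47 of peripubertal 4. Log2 differences of at least 1 in size and lower in early life were found for 7 of 8 members, with Ahsp among them by its fitted value only, and for 1.66% of kept probes. The median difference was -1.87 over the 8 genes, also with early life Ahsp raised to the detection limit, and 0.02 over all kept probes. By limma with group and dye as terms and array as a random block, no member passed the adjusted threshold of 0.05, which 0.399% of kept probes did. The adjusted p-values from limma were 0.102 for Hba-a1, 0.113 for Alas2, 0.137 for Hbb-b2, 0.141 for Ahsp, 0.142 for Hbb-b1 and Slc4a1, 0.284 for Hba-a2 and 0.945 for Bpgm. At an unadjusted p under 0.05 there were 6 of 8 members and 20.2% of kept probes. These genes were chosen with results of the same animals known, so the comparison is not independent of that choice.

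Whether a member passes depends on the setting. Fitted on the 2 deficient groups alone, limma called 3 members (Hba-a1, Hbb-b2 and Alas2), and with no array block it called 4 (Hba-a1, Alas2, Slc4a1 and Ahsp). Without control 3 it called 3 and without the array of control 3 and 4 it called 4, although no control value enters this difference other than through the estimate of the spread. Leaving out peripubertal 3, the highest animal, gave a median of -1.60 and no call.

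Against control, both contrasts were among the results that led to the choice of these genes, so they are given as a description. In early life glands 6 of 8 genes averaged below control and Bpgm above. For Ahsp neither a direction nor a fold is given, since no early life sample was well above background and their mean at the detection limit, 7.38, is above the control mean of 7.30. The differences were -1.08 ± 0.52 for Hba-a1, -0.32 ± 0.68 for Hba-a2, -1.12 ± 0.67 for Hbb-b1, -1.29 ± 0.66 for Hbb-b2, -1.63 ± 0.63 for Alas2, -0.91 ± 0.55 for Slc4a1 and 0.18 ± 0.17 for Bpgm (log2, SE). No member was called by limma's adjusted p, against 0.0966% of kept probes, and 1 was at an unadjusted p under 0.05, against 17.2%. No member separated the groups, which 14.8% of kept probes did.

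In peripubertal glands all 8 genes were above control. The differences were 0.94 ± 0.52 for Hba-a1, 1.05 ± 0.55 for Hba-a2, 0.97 ± 0.67 for Hbb-b1, 0.81 ± 0.66 for Hbb-b2, 0.60 ± 0.63 for Alas2, 0.80 ± 0.55 for Slc4a1, 0.77 ± 0.33 for Ahsp and 0.20 ± 0.17 for Bpgm (log2, SE). No member was called, against 0.0207% of kept probes, 1 was at an unadjusted p under 0.05, against 4.99%, and none separated the groups, against 9.07%. Both comparisons share the control animals.

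The control arrays decide the size of both differences. The median of the 8 genes was -0.997 in early life against control. It was -0.05 without the array of control 1 and 2 and -1.83 without that of control 3 and 4, where Hbb-b2 and Alas2 passed the threshold (adjusted p = 0.0376 for both, limma). Without control 3 alone, Alas2 passed (adjusted p = 0.0471, limma). In peripubertal against control the median was 0.80, and it was 1.78 without the array of control 1 and 2 and 0.03 without that of control 3 and 4, with no call in either.

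**Figure D2:**
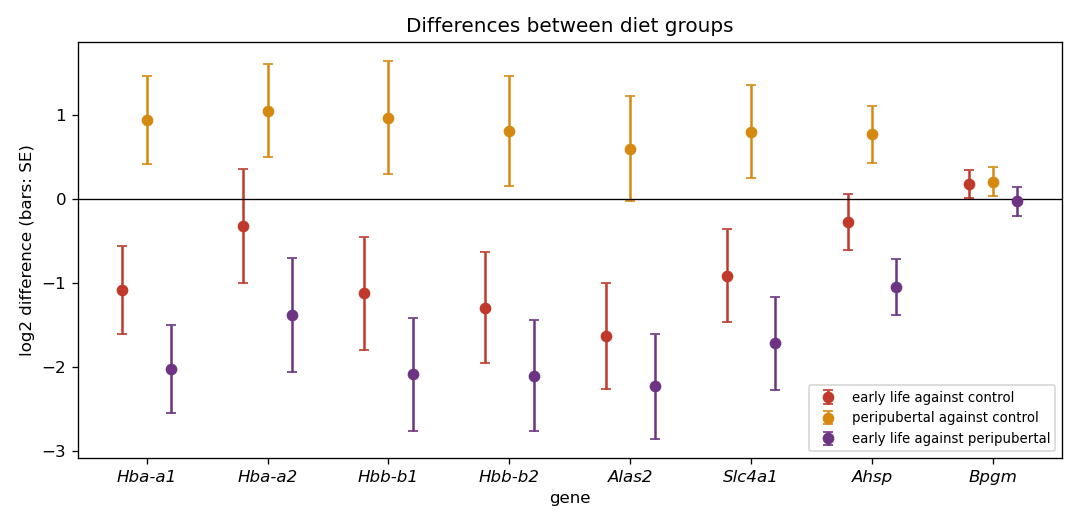
Log2 difference (vertical axis) of each gene in 3 comparisons, with bars for the standard error. Early life against peripubertal differences lie between -2.23 and -1.37 for 6 genes and at -0.03 for Bpgm. The early life level of Ahsp is only an upper bound, so its fitted points against control and peripubertal are not exact.

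Control samples 1 and 2 (first array) and 3 and 4 (second array) had the same diet, strain, sex and age. Hba-a1 averaged 14.8 on the second array, against 16.6 on the first, a difference of -1.82 or a factor of 3.52. The factor was 5.17 for Hbb-b1, 5.18 for Hbb-b2, 4.70 for Alas2, 2.89 for Slc4a1 and 6.05 for Beta-s. It was 1.18 for Bpgm. For Ahsp it was 1.5, with control 4 not well above background. In the early life group the second array minus the first was -0.68 for Hba-a1, -1.14 for Hbb-b1 and -0.63 for Alas2, and in the peripubertal group it was higher by 0.27, 0.13 and 0.74 for the same genes. For the globins and Alas2, the control arrays thus differed by about as much as the deficient groups did.

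Animals on the same array differed as well, in values that scaling between arrays hardly touches. On the first early life array the Cy5 animal was lower than the Cy3 animal, with Cy5 minus Cy3 differences of -1.69 to -1.54 over the 3 globin probes that have all values. On the second peripubertal array the differences were -1.45 to -1.44. The first peripubertal array had -0.67 to -0.45, the first control array -0.71 to -0.65, the second early life array -0.42 to 0.05 and the second control array 0.19 to 0.69. Hba-a2 has no value on the second early life array. It had -1.52 on the first early life array, -0.44 and -1.17 on the peripubertal arrays and -0.22 and 0.44 on the control arrays. Beta-s did not always go with the other globin probes, at 0.35 on the first peripubertal array. Over all kept probes, 1.34% to 3.20% differed by 1 or more on an array.

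Alas2 moved with the globins between array-mates. Its Cy5 minus Cy3 differences were -1.56 and -0.30 on the early life arrays, -0.92 and -1.79 on the peripubertal arrays and -0.56 and 0.28 on the control arrays. Slc4a1 had -0.59 and 0.36, -1.19 and -1.87, and 0.61 and 0.12 in the same order. On the first control array, Slc4a1 was therefore higher in the animal with less globin RNA. Ahsp had -0.22 and 0.58, -0.15 and -1.37, and -0.06 and 0.05, of which the early life values are at background. Bpgm stayed within -0.24 and 0.38 on all arrays.

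**Figure D3:**
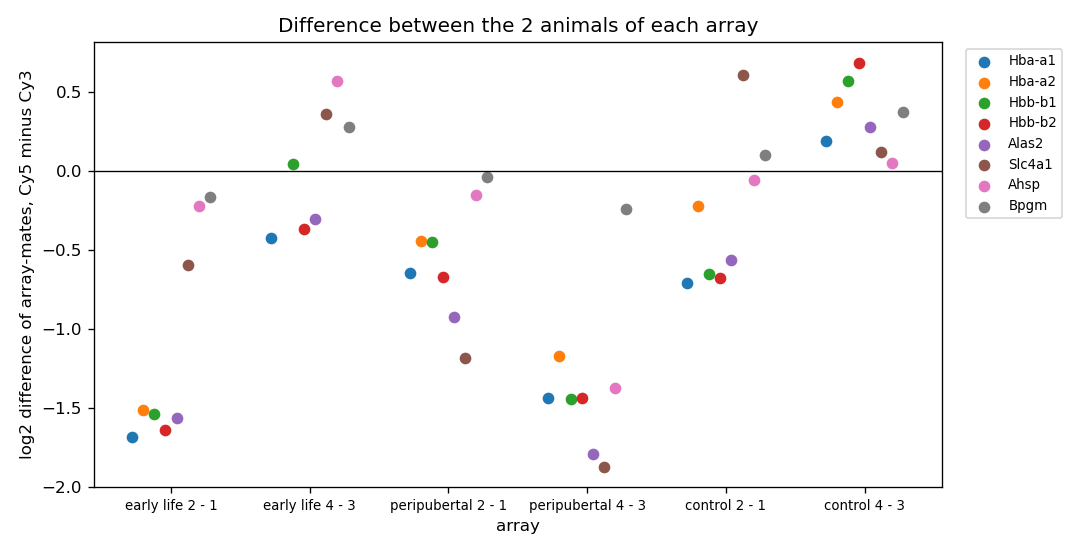
Log2 difference between the 2 animals of each array, Cy5 minus Cy3 (vertical axis), for the 6 arrays (horizontal axis) and 8 genes (colours). The globin and Alas2 points lie at about -1.6 on the first early life array and between 0.19 and 0.69 on the second control array. On the first control array Hba-a2, at -0.22, lies above the other globins.

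The spread of these genes over the 12 animals was large for the array. The SD of the log2 level was 1.17 for Hba-a1, 1.29 for Hbb-b1, 1.30 for Hbb-b2 and 1.35 for Alas2, and 0.713%, 0.551%, 0.530% and 0.477% of kept probes had a larger SD. Slc4a1 had an SD of 1.01 (1.23% of probes larger) and Ahsp of 0.60 (5.29% larger). Bpgm, at 0.20, was less variable than 69.0% of kept probes. The median SD was 0.25 over the 19063 kept probes with all 12 values.

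Part of this variation was within groups. For Hba-a1 the sum of squares divided into 54.3% between groups, 25.5% between arrays of a group and 20.1% between animals of an array. For Hbb-b1 the shares were 47.5%, 37.7% and 14.7%, for Alas2 53.1%, 29.5% and 17.4% and for Slc4a1 52.8%, 21.3% and 25.9%. The medians over all kept probes were 31.4%, 29.4% and 31.7%. The group share includes the slide for the part that sets control apart, and the share between animals of an array includes the dye.

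Ratios among the 4 member globins varied less than their levels. The log2 ratio of Hba-a1 to Hbb-b1 had an SD of 0.26 over 12 animals and ran from 0.92 in control 2 to 1.73 in early life 3. Its group means were 1.27 ± 0.33 in early life, 1.20 ± 0.12 in peripubertal and 1.23 ± 0.36 in control samples (SD, n = 4 each). The ratio of Hbb-b1 to Hbb-b2 had an SD of 0.16, and that of Hba-a1 to Hba-a2 0.23 over 10 animals. From end to end, the log2 ratio of Hba-a1 to Hbb-b1 spanned 0.81 and that to Hbb-b2 0.82, and the ratio of Hba-a2 to Hbb-b1 spanned 0.86 and that to Hbb-b2 1.11. Beta-s kept its ratios less closely. Its log2 ratio had an SD of 0.60 to Hbb-b1 and 0.59 to Hba-a1 over 10 animals, against 1.24 for its level, and 0.75 to Hba-a2 over 8 animals, against 1.29. Intensities of different probes are not on a common scale, so only the spread of a ratio is read here, not its size.

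The globin level of an animal was taken as the mean of Hba-a1, Hbb-b1 and Hbb-b2, which have all 12 values. Relative to it, Alas2 had an SD of 0.30, against 1.35 for its level, with a slope of 1.06 on the globin level, where a fixed ratio gives a slope of 1. Slc4a1 had 0.56, against 1.01, with a slope of 0.72. For Ahsp the relative SD was 0.81, against 0.60 for the level, and for Bpgm 1.18, against 0.20, with slopes of 0.40 and 0.07. Of these genes Alas2 thus kept its ratio to the globin level most closely, though not alike in all groups (given next), and Bpgm kept none. The slopes of Slc4a1 and Ahsp include early life samples at or near background, where a level cannot go lower, and the background offset of 50 lowers the slope of dim probes.

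The ratio of Alas2 to Hba-a1 averaged -6.01 ± 0.08 in early life, -5.80 ± 0.32 in peripubertal and -5.46 ± 0.25 in control samples (log2, SD, n = 4 each). Early life values ran from -6.09 to -5.92 and control values from -5.71 to -5.18, without overlap. For the ratio of Alas2 to Hbb-b1 the values overlapped, at -5.01 to -4.31 in early life and -4.34 to -4.02 in control samples. The ratios of Alas2 to Hbb-b2 and, with 2 early life values, to Hba-a2 were also lower in early life without overlap. The share of other probe pairs that separate these groups was not counted. Early life and control also differ by slide, and no test was made.

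**Figure D4:**
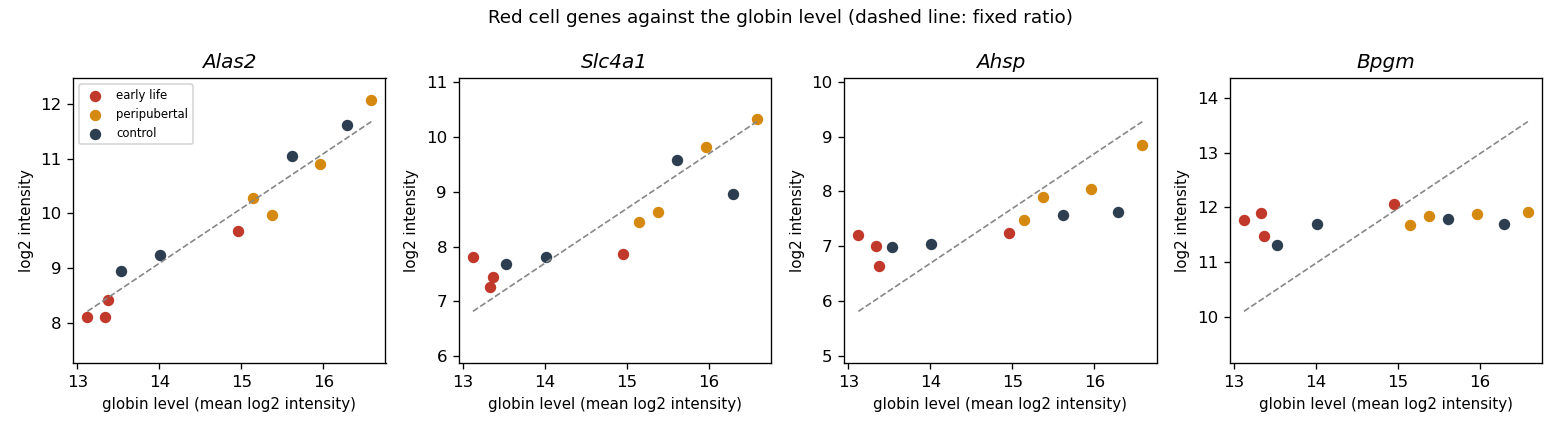
Log2 intensity of Alas2, Slc4a1, Ahsp and Bpgm (vertical axes, all spanning the same number of log2 units) against the globin level of the animal (horizontal axis, mean log2 intensity of 3 probes), coloured by group. Points along the dashed line keep a fixed ratio to the globins, as Alas2 nearly does (slope 1.06), while Bpgm is flat (slope 0.07).

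Among 19056 other kept probes with all values, those most like the globin level over the 12 animals were named by their Pearson correlation, as a description of samples that share arrays, dyes and groups. The highest was Gm5226, at 0.984, which RefSeq names Hba-ps4, an alpha globin pseudogene. It ran from 7.68 to 8.86 in early life, 8.68 to 9.92 in peripubertal and 7.88 to 10.01 in control samples, with a slope of 0.68. Zdhhc22, a palmitoyltransferase gene, followed at 0.968 with a slope of 0.44. Then came Flrt2 at 0.936, Cklf at 0.922, Phf19 at 0.910, Tcirg1 and a first probe of Dapp1 at 0.898, Hpgd at 0.897, the second probe of Dapp1 at 0.896 and Pdgfb at 0.892. Only 5 probes were above 0.9. The slopes of Flrt2, Cklf, Phf19, Tcirg1, Dapp1 and Pdgfb were between 0.11 and 0.21, so these changed little, and Hpgd, with a slope of 0.62, was well above background in 1 of 4 early life samples. Pdgfb was in none. Of the members outside that mean, the correlation was 0.982 for Hba-a2 (n = 10), 0.977 for Alas2, 0.897 for Slc4a1, 0.843 for Ahsp and 0.434 for Bpgm (n = 12 each).

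By the medians of their lists, genes that developing red cells use, but other tissues also express, differed by less than the globins between deficient groups. All 12 heme synthesis genes other than Alas2 were kept. In early life glands 3 of them were higher and 6 lower than in peripubertal glands, among the 9 with values in both groups, with a median of -0.23 and no call. Fech, the enzyme that inserts iron into heme, averaged 12.53 ± 0.03 in early life, 12.62 ± 0.19 in peripubertal and 12.44 ± 0.21 in control glands (SD, n = 4 each). Slc25a38, a mitochondrial glycine carrier, differed by -0.31 ± 0.15 between early life and peripubertal glands, and Urod had no early life value. Of the less abundant ones, Slc25a39 differed by -0.72 ± 0.23, Slc25a37 by -0.54 ± 0.40 and Alad by -0.50 ± 0.23, while Abcb10 differed by 0.57 ± 0.34. The heme list deviated from its mean by -0.15 to -0.05 in early life, -0.05 to 0.12 in peripubertal and -0.19 to 0.24 in control samples. The early life and peripubertal ranges thus met at -0.05. Some heme genes have no value on some arrays, so these means are not over the same genes in every sample. The globin level had -1.65 to 1.81 over all animals.

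Of 17 genes of red cell enzymes and late maturation, 15 were kept. In early life glands 7 were higher and 8 lower than in peripubertal glands, with a median of -0.12 and no call. The most abundant were Prdx2, a peroxiredoxin of red cells and other tissues, at 0.32 ± 0.13, Hemgn at -0.19 ± 0.18 and Isg20, an exonuclease gene induced by interferon, at -0.98 ± 0.21 (log2 difference, SE). Of these, Isg20 had the difference closest to those of the globins. Of the less abundant ones, Trim10 differed by more, at -1.25 ± 0.38, while Cat differed by 0.57 ± 0.25. The early life levels of Trim10, 6.95 to 7.21, lay under the lowest level well above background in each channel, so its value is not exact.

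Membrane and skeleton genes of the red cell were mostly dim or mixed. Of 16 listed, 11 were kept, and Epb42, Rhag and Kel were among those that did not pass the filter. Between early life and peripubertal glands 3 were higher and 7 lower, none called, with a median of -0.13. Ank1, the ankyrin that ties band 3 to the skeleton, differed by -1.71 ± 0.72 (n = 4 and 2). It averaged 8.99 ± 0.42 in early life, 10.69 ± 0.10 in peripubertal and 10.68 ± 1.11 in control glands. Tspo2, a red cell relative of the translocator protein, differed by -0.10 ± 0.26, and Epb41 had no peripubertal value. Of the less abundant ones, Tmod1 differed by -0.93 ± 0.19 (adjusted p = 0.0634, limma) and Rhd by -0.66 ± 0.25, while Add2 differed by 0.45 ± 0.17.

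The transcription factors that drive red cell formation were largely below the filter. Of 9 such factors and receptors 5 were kept, and Gata1, Klf1, Nfe2 and Gfi1b were not. Lmo2, Zfpm1 and Tfrc, the most abundant of those kept, differed by -0.22, 0.25 and 0.51 between early life and peripubertal glands, with a list median of -0.19 and no call. Of 8 globin genes outside the members, 6 were on the array and only Hbb-bh2 was kept, at a mean of 7.33 and a difference of 0.06.

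Markers of other blood cells were set beside the globins, since blood in a gland brings these cells too. Of 11 platelet markers 6 were kept, with a median of -0.02 between early life and peripubertal glands (2 higher, 4 lower). Treml1, Pf4 and Gp1bb, the most abundant of them, differed by -0.39, 0.14 and 0.87, and Ppbp and Itga2b were not kept. Of 12 lymphocyte markers 6 were kept, with a median of 0.05 (3 higher, 3 lower), and Cd3e, Cd4 and Nkg7, the most abundant, differed by -0.06, 0.19 and 0.17. The other 3 differed more and in both directions, with Cd79a at 1.23 ± 0.24 (adjusted p = 0.0553, limma), Cd79b at -0.60 ± 0.43 and Lck at -0.46 ± 0.17. No gene of either list was called, and both list means stayed between -0.24 and 0.36 in all samples.

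Neutrophil markers were high in single animals. The list (10 of 12 kept) deviated from its mean by -0.74 to 0.41 in early life, -0.48 to 2.74 in peripubertal and -0.53 to 1.31 in control samples. The highest value was that of peripubertal 3, which also had the highest globin level, and the next was control 2. S100a8, a calcium-binding protein gene of neutrophils, had 14.7 in peripubertal 3, against 8.93 to 9.85 in the other peripubertal animals and 8.03 to 10.1 in early life animals. Peripubertal 1 and control 1, with high globin levels, had list values of -0.34 and -0.53, so the animals high in one were not always high in the other. Between early life and peripubertal glands 3 of 9 markers were higher and 6 lower, none called, with a median of -0.81. Csf3r, Lcn2 and S100a9, the most abundant, differed by 0.86 (n = 4 each), -0.81 (n = 2 and 4) and -0.36 (n = 4 and 2). S100a9 had no value in peripubertal 3 and 4. The part of neutrophil RNA in the other differences was not tested.

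Macrophage and endothelial markers differed in the same direction as the globins, by less. All 10 macrophage markers were lower in early life than in peripubertal glands, with a median of -0.63 and no call. Against control, 0 of 10 were higher in early life and 9 of 10 in peripubertal glands, with medians of -0.41 and 0.23. Csf1r, C1qa and C1qc, the most abundant, differed by -0.42, -0.95 and -0.74 between early life and peripubertal glands. The list ran from -0.56 to 0.04 in early life, -0.25 to 0.73 in peripubertal and -0.39 to 0.51 in control samples.

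Endothelial markers gave 2 genes above and 7 below the peripubertal level in early life glands, with a median of -0.37 and none called. Egfl7 differed by -0.44 and Kdr, a receptor of vascular growth factor, by 0.76, and Plvap had no early life value. The list ran from -0.48 to 0.04 in early life, -0.10 to 0.34 in peripubertal and -0.27 to 0.32 in control samples. Pituitary hormone genes had a median of 0.06. The part of vessels or macrophages in the globin differences was not tested.

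**Figure D5:**
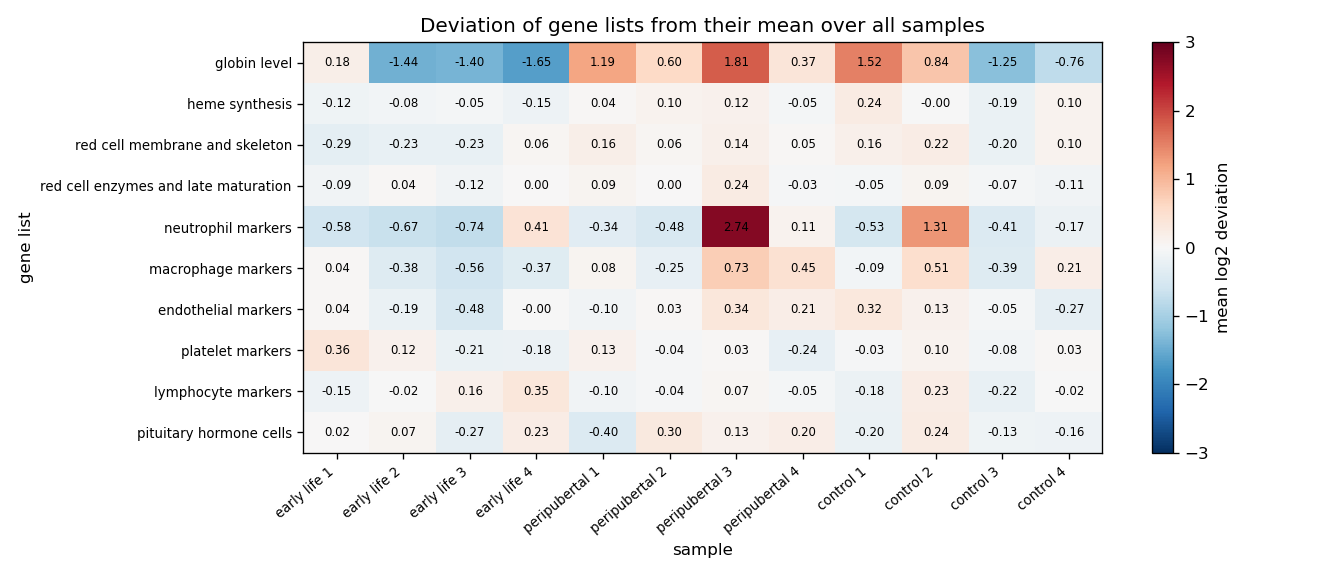
Mean log2 deviation of gene lists (rows) from their mean over all samples in the 12 animals (columns), with the globin level in the top row and the value printed in each cell. The globin row runs from -1.65 to 1.81, while the heme, membrane and enzyme rows stay within -0.29 and 0.24 and the neutrophil row reaches 2.74 in peripubertal 3.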

How the data were processed

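Spot brightness came from the deposited scanner files as raw intensity, which per the file headers was read by version 11.0.1.1 of Agilent Feature Extraction. The value table deposited by the authors holds log2 values and served to check the naming of the deficient groups (tolerance 1e-06). Of 44397 features, 1377 controls and the outlier spots were left out. Background was corrected by normexp (offset 50), dyes by loess within arrays, and arrays by Aquantile. Single-channel log2 values followed. Spots of a probe were averaged, and probes well above background in at least 4 of 12 channels were kept.

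Groups were compared with limma 3.58.1 in R 4.3.3 over all kept probes, with group and dye as terms and array as a random block (correlation 0.308, 8 residual and 3.47 prior degrees of freedom), two-sided, with Benjamini-Hochberg adjustment. The number of arrays limits precision. Per the labels, animals are biological replicates. Members, lists and tests were chosen with earlier results of these data known. Named are all members, the 10 probes most like the globin level, and the 3 most abundant genes of each list. Beta-s, S100a8 and the less abundant heme, red cell enzyme, membrane and lymphocyte genes were named after their values were seen. Probes were not realigned, as no genome was used. Steps were tested on simulated data.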

Additional observations from a re-analysis of the deposited data

How the results depend on the processing

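The comparisons were repeated under 30 settings each (offset, scaling, signal, filter, outlier marks, probe choice, samples fitted, block, and leaving out each sample or array). Early life against control had 0 called members, except 1 without control 3 and 2 without the array of control 3 and 4. Its median of -0.997 ran from -1.37 to -0.67 with 1 sample left out and from -1.83 to -0.046 with 1 array left out. Peripubertal against control had 0 called members throughout, with a median of 0.80 that ran from 0.46 to 1.14 with 1 sample left out, and from 0.033 (without the array of control 3 and 4) to 1.78 (without that of control 1 and 2) with 1 array left out. Early life against peripubertal had 0 called members, except 3 with only the groups compared, 4 with no random block, 3 without control 3 and 4 without the array of control 3 and 4. Its median of -1.87 ran from -2.13 to -1.60 and from -2.36 to -1.59. The cause of these shifts was not tested. The SD of the globin level (1.25) ran from 1.16 to 1.34 over all settings run for it, that of the Hba-a1 to Hbb-b1 ratio from 0.22 to 0.28 and that of Alas2 to Hba-a1 from 0.28 to 0.43. Members apart between early life and peripubertal numbered 7 by measured values, Ahsp included, under 4 settings and 6 under median centring and the processed signals. Over all kept probes the 23, 5 and 94 calls of the comparisons ran from 0 to 1285, 0 to 38 and 1 to 1697. Replicate numbers did not pair the animals: same-numbered samples correlated between -0.18 and 0.13 after group means. With the replicate block in place of dye, medians were -0.997, 0.80 and -1.88 with 0 members called, and 12, 0 and 8 of all kept probes were called.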
